A study of Tigriopus californicus with 32 samples.

Results

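A pair of transcripts annotated as heat-shock protein 90 (HSP90) was followed through 16 groups of the intertidal copepod Tigriopus californicus. They are TCALIF_01534, whose description names chain a of the hsp90 chaperone and which belongs to the genomic transcripts (GT), and comp46685_c0_seq1_33583 (comp46685 from here on), described as heat shock protein 90 and taken from the de novo transcripts (DNT). They were chosen by these identifiers, and they are 2 of the 21556 transcripts in the tables. Both passed the filter on low counts in all 12 tables. The descriptions of the data list another HSP90 entry, comp41334_c0_seq1_26338 (comp41334), which is given beside them.

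HSP90 is an ATP-dependent chaperone that works as a dimer on proteins already close to their folded form, among them kinases, hormone receptors and, with the co-chaperone UNC-45, muscle myosin. It receives many of these clients from HSP70 through HOP, a protein that binds both chaperones. In animal cells HSP90 also binds the heat-shock transcription factor, and its stress-inducible genes are classic targets of that factor when proteins unfold in the heat.

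RNA-seq libraries were made from whole adult copepods of 4 populations, San Diego (SD-S) and Bird Rock (BR-S) in the south and Santa Cruz (SC-N) and Bodega Bay (BB-N) in the north. The nonvariable regime was a steady 20° from birth, with 20NV taken at that temperature and 28ST after 2 h at 28°, and animals born and raised in a daily cycle of 12 h at 20° and 12 h at 28° were sampled at the end of the 20° part (20V) or 2 h into the 28° part (28V). Each library came from a dish of 100 animals of both sexes, so that 2 libraries stood for each of the 16 groups, 32 in all. All animals came from laboratory cultures kept at 20° before the experiment. Values are pooled over tissues and sexes, and a change in the amount of a tissue cannot be told apart from a change in RNA per cell.

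The libraries held between 3646890 and 14509087 counted reads, with a median of 7413467. The deposited value of a gene is its cpm (reads scaled to a common library size) after TMM scaling, a correction of library size for differences in composition. The 2 libraries of a group are called a and b after the suffixes of their column names, and b was the deeper library in all 16 pairs. The SC-N libraries were less alike than those of the other populations, and SC-N 28V a stood lowest: its mean correlation with the other 7 libraries of its population was 0.813, against 0.857 to 0.904 for the rest of SC-N and 0.917 to 0.946 in the other 3 populations. Fits that leave out 1 library were made without the block that the other fits use for the suffix, so a call lost in them may go with either change. Beside such a call the value with every library and no block is given where that change alone ended it. The reads behind a single value ran from 13 to 38141 for comp46685 and from 1041 to 32686 for TCALIF_01534, and the smallest ones, in SC-N and BB-N at 20°, carry the most counting error. Transcript lengths were not used here, so levels are compared between groups within a transcript and not between transcripts.

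The levels of TCALIF_01534 were ordered first by temperature. For levels set across populations, all 32 libraries were scaled together, and these joint values were 0.971 to 1.19 times the deposited ones. The joint values of all 16 libraries at 28° lay above those of all 16 libraries at 20°, with 1181 in BR-S 28V a as the lowest at 28° and 795 in BB-N 20V b as the highest at 20°. The highest mean was 3822 ± 408 (SD, n = 2) in BB-N 28ST, followed by 2886 ± 367 in BR-S 28ST, 2402 ± 302 in SD-S 28ST and 2325 ± 371 in SC-N 28ST. The ranges of SD-S 28ST, SC-N 28ST and SC-N 28V overlapped from neighbour to neighbour in this order. The lowest means were 355 ± 7.68 in BR-S 20NV and 327 ± 29.9 in SC-N 20V.

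The levels of comp46685 set BR-S apart from the other populations. Among the groups of those other populations, all means at 28° stood above all means at 20°. The lowest mean at 28° was 51.3 in BB-N 28V and the highest at 20° was 42.3 in SD-S 20V. The 4 BR-S groups held the 4 highest places, with means of 3406 ± 483 in 28ST, 1588 ± 242 in 28V, 425 ± 54.0 in 20V and 403 ± 17.5 in 20NV (SD, n = 2 each). The lowest BR-S library, at 387, was above every library of the other populations, of which the highest was SD-S 28V b at 192. From SD-S 28ST (168 ± 30.1) down to BB-N 20V (22.2 ± 6.53) each group overlapped the next lower one, apart from BB-N 20V itself. The lowest 3 groups were BB-N 20NV (7.08 ± 1.37), SC-N 20NV (5.25 ± 1.09) and SC-N 20V (5.15 ± 2.95), and the last 2 of these overlapped.

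**Figure D1:**
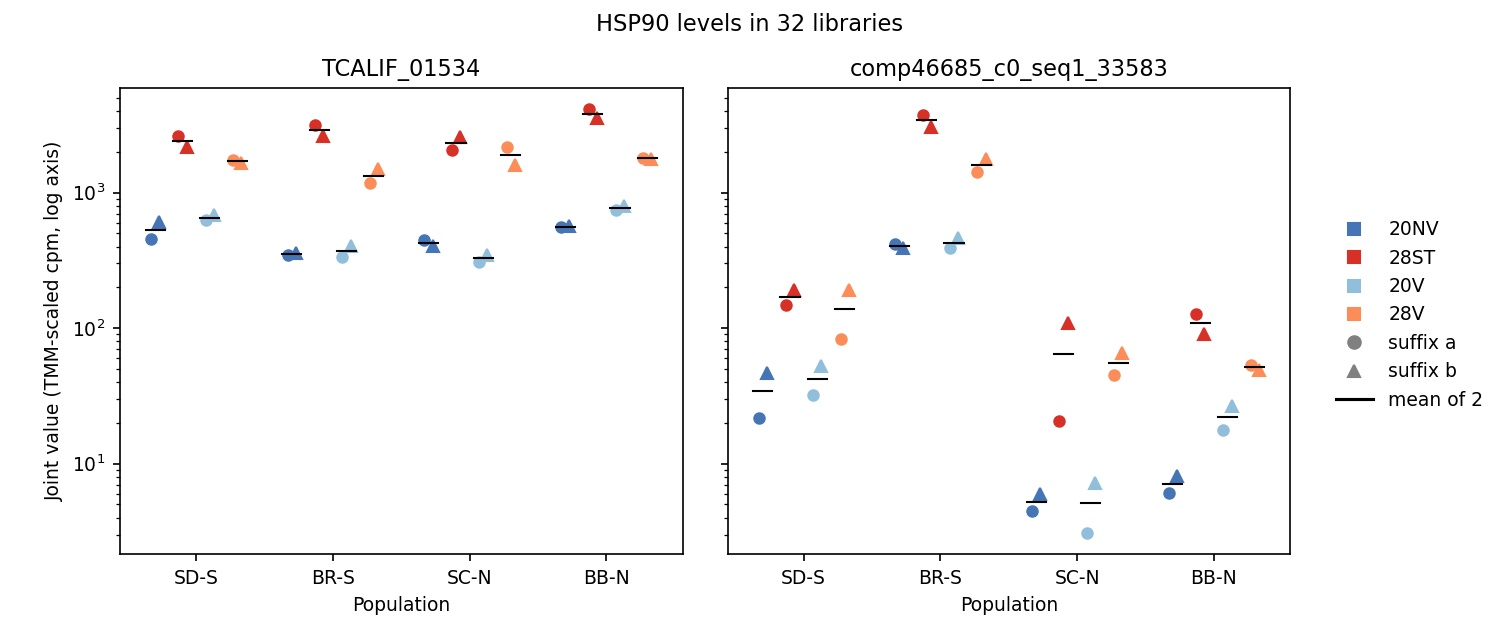
Joint values of TCALIF_01534 (left) and comp46685 (right) in 32 libraries, in TMM-scaled cpm on a log axis, by population and treatment, with circles for suffix a, triangles for suffix b and bars for the mean of 2 libraries. TCALIF_01534 separates 28° from 20° in all 4 populations, while the BR-S libraries of comp46685 lie above those of the other 3 populations.

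The baseline at a nonvariable 20° was compared between populations in a limma fit of the 32 libraries over the 13911 genes that all tables hold, on log2(joint value + 1). A difference is called where its p-value, adjusted by Benjamini and Hochberg's method across every gene in a fit, is under 0.05. At 20NV, 6 of the 12 differences of the 2 transcripts between pairs of populations were called, where the share of all genes called was 39.5% for SC-N against BR-S, 30.6% for BB-N against BR-S, 22.2% for SC-N against SD-S, 20.1% for BB-N against SD-S, 25.2% for BR-S against SD-S and 15.7% for BB-N against SC-N.

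For comp46685, BR-S was higher than SD-S by 3.62 ± 0.36 on the log2 scale (SE, limma adjusted p = 3.26e-06). SC-N was lower than SD-S, with a log2 difference of -2.41 ± 0.36 (limma adjusted p = 0.000154), and so was BB-N, with -2.04 ± 0.36 (limma adjusted p = 0.000724). Against BR-S the log2 differences were -6.03 in SC-N and -5.66 in BB-N, and among the 13911 genes ordered from the largest rise to the largest fall they stood at places 13906 and 13909. SC-N and BB-N differed from each other by 0.37 ± 0.36, which was not called. For TCALIF_01534 the only call was a higher level in BB-N than in BR-S, by 0.65 ± 0.21 (limma adjusted p = 0.0284), and the other 5 log2 differences lay between -0.57 and 0.39. That call was lost without any 1 of the 4 libraries compared (limma adjusted p of 0.0842 to 0.109). Without SD-S 20NV b the calls of comp46685 in SC-N and BB-N against SD-S were lost too (limma adjusted p of 0.058 and 0.15), and without BB-N 20NV a that in BB-N was lost (limma adjusted p = 0.092).

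The same comparison called 9 of 12 differences at 20V, 7 at 28ST and 5 at 28V. The share of all genes called at 20V was 25.6% for SC-N against BR-S, 33.7% for BB-N against BR-S, 19.3% for BR-S against SD-S, 35.9% for SC-N against SD-S, 23.3% for BB-N against SD-S and 36.7% for BB-N against SC-N. The share of all genes called at 28ST was 36.2% for SC-N against BR-S, 21.7% for BB-N against BR-S, 21.1% for BR-S against SD-S, 20.9% for SC-N against SD-S, 24.3% for BB-N against SD-S and 20.6% for BB-N against SC-N. The share of all genes called at 28V was 29.6% for SC-N against BR-S, 35.9% for BB-N against BR-S, 18.4% for BR-S against SD-S, 27.4% for SC-N against SD-S, 25% for BB-N against SD-S and 20.7% for BB-N against SC-N. The higher level of comp46685 in BR-S than in each other population was called in all 4 treatments, with log2 differences from SD-S of 3.33 in 20V, 4.34 in 28ST and 3.63 in 28V. At 20V, TCALIF_01534 was lower in BR-S than in SD-S (-0.82 ± 0.21) and lower in SC-N than in SD-S (-0.997 ± 0.21), and BB-N was higher than SC-N by 1.23 ± 0.21 for TCALIF_01534 and by 1.98 ± 0.36 for comp46685. At 20V the call of TCALIF_01534 in BR-S against SD-S was lost without SD-S 20V b or BR-S 20V a (limma adjusted p of 0.106 to 0.148), and that of comp46685 in BB-N against SC-N without SC-N 20V a or BB-N 20V b (limma adjusted p of 0.114 and 0.115). At 28ST the calls of TCALIF_01534 in BB-N against SC-N and SD-S were each lost in 2 of the 32 fits that left out 1 library, and that of comp46685 in SC-N against SD-S in 3. At 28V none of the 6 differences of TCALIF_01534 was called. The calls of comp46685 in SC-N and BB-N against SD-S at 28V, -1.20 and -1.29, were each lost in 30 of the 32 fits that left out 1 library, and with every library and no block neither was called (limma adjusted p of 0.121 and 0.102). The call of comp46685 in BB-N against SC-N at 28ST, 1.15 ± 0.36, was lost in 31 of the 32 and also with every library and no block (limma adjusted p = 0.163), and without SC-N 28ST a the difference was -0.0262. Without SC-N 28V a the difference of comp46685 at 28V from SD-S was -0.95 in SC-N, and SC-N minus BR-S, -4.83 with all libraries, was -4.57 and still called.

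SD-S and SC-N were sequenced in the same lanes, and BR-S and BB-N in others. The called differences SC-N minus SD-S and BB-N minus BR-S of comp46685 are therefore within lanes, whereas lane and population cannot be told apart in the other pairs. The reads of each population were mapped to its own references, so a difference in reference and a difference in RNA cannot be told apart either.

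The reads of comp46685 were set against those of TCALIF_01534 in the same library, since reads went to the DNT only if they had not mapped to the GT. In BR-S there were 109 to 120 reads of comp46685 per 100 reads of TCALIF_01534 over the 8 libraries (median 118). The range was 4.75 to 11.6 in SD-S (median 6.64), 1.11 to 3.38 in BB-N (median 2.68) and 0.993 to 4.21 in SC-N (median 1.78). The BR-S range does not meet that of any other population, and it spanned the 20° and 28° libraries alike. Whether the entries are separate genes, alleles or parts of 1 gene, and how far reads moved between them, was not tested.

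The sum of the 2 transcripts does not depend on how reads were divided between these 2. It leaves out comp41334 and reads that were not unique. How far reads were lost from the sum in this way, and whether populations differ in it, was not tested. The sum made up 0.492% and 0.583% of all counted reads in the 2 BR-S 28ST libraries, 0.339% and 0.373% in BB-N, 0.234% and 0.275% in SD-S and 0.210% and 0.234% in SC-N. From 20NV to 28ST the mean of the summed deposited values went up 5.55-fold in SC-N, 4.49-fold in SD-S, 6.99-fold in BB-N and 8.24-fold in BR-S. From 20V to 28V it went up 5.78-fold, 2.64-fold, 2.31-fold and 3.69-fold in the same order, and the SC-N fold was 5.08 without SC-N 28V a. These folds of sums are descriptions with no test.

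The HSP90 entry comp41334 showed another pattern among populations. Beside TCALIF_01534, comp41334 had 19.6 to 96.7 reads per 100 reads of TCALIF_01534 in BR-S, 21.5 to 71.5 in SD-S and 23.6 to 93.8 in SC-N. In BB-N it had 0.265 to 1.14. In all 4 populations this ratio was lower in both 28ST libraries than in both 20NV libraries.

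**Figure D2:**
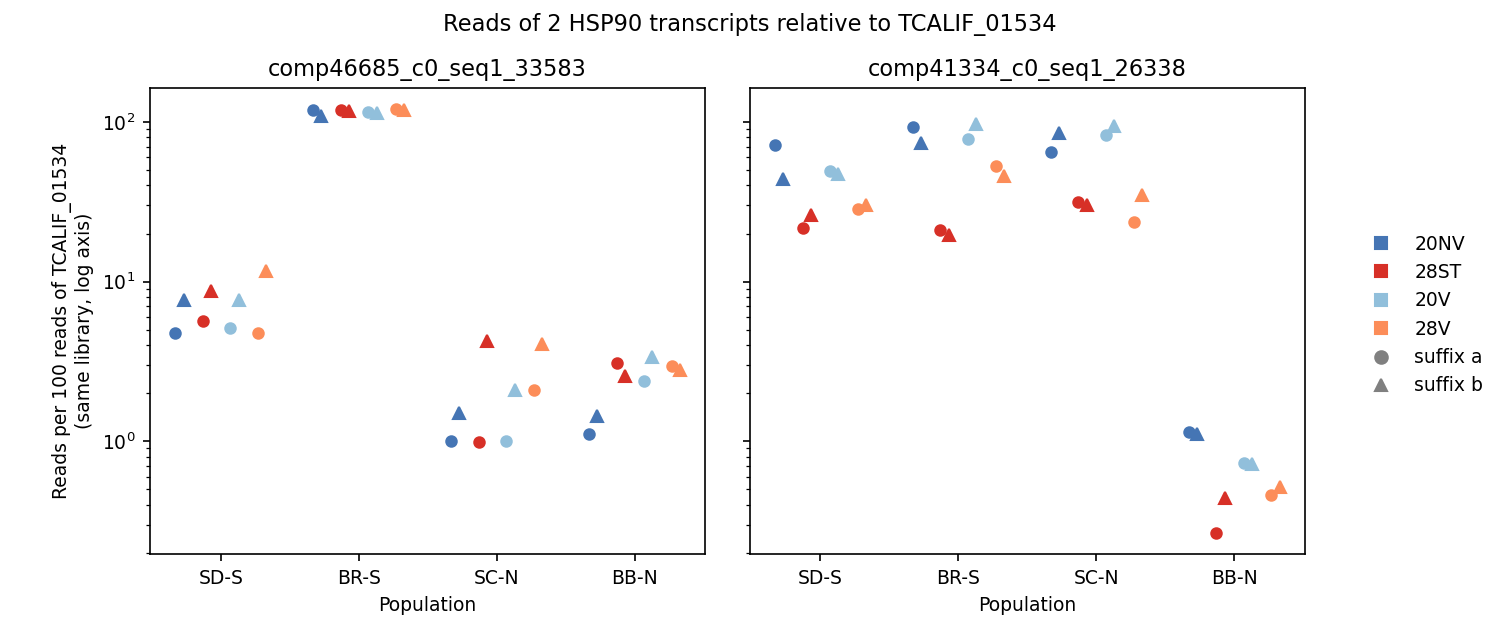
Reads of comp46685 (left) and comp41334 (right) per 100 reads of TCALIF_01534 in the same library, on a log axis, by population and treatment, with circles for suffix a and triangles for suffix b. For comp46685 the BR-S libraries lie at 109 to 120, and for comp41334 the BB-N libraries lie at 0.265 to 1.14.

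The response to moderate thermal stress after the nonvariable regime was read from 28ST vs 20NV. Both HSP90 transcripts were higher in both 28ST libraries than in both 20NV libraries in all 4 populations, a pattern that 14% of all genes showed in SC-N, 9.64% in SD-S, 18.9% in BB-N and 16.2% in BR-S. In the limma fit of the 4 libraries of each table, both rose in BR-S and BB-N and neither was called in SD-S and SC-N. The 4 calls among 8 compare with 0.0222% of all genes called higher in SC-N, 0.028% in SD-S, 0.316% in BB-N and 0.115% in BR-S.

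In BR-S, deposited values of TCALIF_01534 were 298 and 306 in the 20NV libraries a and b and 2675 and 2205 in the 28ST libraries, and those of comp46685 were 354 and 332 against 3187 and 2573. For both transcripts the 28ST a value was the highest of the 4. The log2 differences were 3.004 ± 0.31 for TCALIF_01534 (SE, limma adjusted p = 0.0471) and 3.06 ± 0.32 for comp46685 (limma adjusted p = 0.0482), the 9th and the 8th largest of 17460 genes. Neither was called with all 4 libraries and no block (limma adjusted p = 0.097 for both), nor when any 1 of the 4 was left out as well, with limma adjusted p between 0.0692 and 0.793 and log2 differences of 2.86 to 3.21.

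In BB-N, TCALIF_01534 went from 514 and 524 to 3872 and 3274, a log2 difference of 2.78 ± 0.33 (SE, limma adjusted p = 0.0396). For comp46685 the values were 5.68 and 7.49 in 20NV and 119 and 84.0 in 28ST, a log2 difference of 3.74 ± 0.26 (limma adjusted p = 0.00684). The rise of comp46685 was the 7th largest of 17730 genes and that of TCALIF_01534 the 27th. Without either 20NV library neither was called, with limma adjusted p of 0.0863 to 0.52.

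In SD-S, TCALIF_01534 had values of 454 and 605 in 20NV and of 2580 and 2148 in 28ST, a log2 difference of 2.17 ± 0.23 (SE, limma adjusted p = 0.177). Values of comp46685 were 21.5 and 46.3 against 145 and 186, a log2 difference of 2.34 ± 0.21 (limma adjusted p = 0.107). The groups lay far apart, and these were the 42nd and the 36th largest of 17866 differences. Both passed the threshold in the fit of the 8 SD-S libraries, with limma adjusted p of 0.0358 and 0.0293. In fits of the table with no block, which with all 4 libraries called neither, comp46685 was called without any 1 of the 4 libraries (limma adjusted p of 4.63e-05 to 0.0444), and TCALIF_01534 without either 28ST library (0.000166 and 0.00123).

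In SC-N, TCALIF_01534 had values of 421 and 379 in 20NV and of 1935 and 2439 in 28ST, a log2 difference of 2.44 ± 0.28 (SE, limma adjusted p = 0.396). For comp46685 the values were 4.19 and 5.64 against 19.2 and 103, a log2 difference of 2.96 ± 0.52 (limma adjusted p = 0.805). The 28ST b value of comp46685 was several times the 28ST a value, and the other 3 populations had no such gap in 28ST. Without SC-N 28ST a its difference was 4.14, and without SC-N 28ST b it was 1.78. Without either 20NV library both transcripts were called, with limma adjusted p of 0.00621 to 0.0368.

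The response within the variable regime was read from 28V vs 20V. Again both transcripts were higher in both 28V libraries than in both 20V libraries in every population, as were 13.1% of all genes in SC-N, 12.6% in SD-S, 16.6% in BB-N and 13.4% in BR-S. Both rose in BR-S and SC-N, TCALIF_01534 rose in BB-N, and the SD-S differences were not called. Of all genes, 0.519% were called higher in SC-N, 0% in SD-S, 0.0962% in BB-N and 0.142% in BR-S, against 5 of 8 for the 2 transcripts. In the fit of the 8 libraries of each population 0 of these 8 differences were called.

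In BR-S, values of TCALIF_01534 were 299 and 358 in 20V and 1054 and 1324 in 28V, a log2 difference of 1.85 ± 0.20 (SE, limma adjusted p = 0.00428). Those of comp46685 were 344 and 410 against 1264 and 1572, a log2 difference of 1.91 ± 0.20 with the same adjusted p. Neither was called with all 4 libraries and no block (limma adjusted p = 0.322 for both). With no block and 1 library left out, both were called without either 20V library and neither without either 28V library, with limma adjusted p of 0.68 to 0.764 in the latter.

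In SC-N, values of TCALIF_01534 were 271 and 316 in 20V and 1891 and 1455 in 28V, a log2 difference of 2.50 ± 0.60 (SE, limma adjusted p = 0.00361). Those of comp46685 were 2.72 and 6.56 against 39.8 and 59.1, a log2 difference of 3.22 ± 0.43 (limma adjusted p = 1.76e-10). In this table limma gave every gene the trend's variance instead of its own. With all 4 libraries and no block neither was called (limma adjusted p = 0.935 for both). Without SC-N 28V a, again with no block, the log2 differences were 2.31 and 3.50 and neither was called (limma adjusted p = 0.99995 for both). Of the other 3 fits that left out a library, TCALIF_01534 was called in 1 and comp46685 in 1.

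In BB-N, values of TCALIF_01534 were 739 and 783 in 20V and 1772 and 1739 in 28V, a log2 difference of 1.21 ± 0.12 (SE, limma adjusted p = 0.0418). Those of comp46685 were 17.6 and 26.4 against 52.4 and 48.5, a log2 difference of 1.19 ± 0.19 (limma adjusted p = 0.127). The 28V libraries lay close to each other for both transcripts. TCALIF_01534 was not called with all 4 libraries and no block (limma adjusted p = 0.0743), nor with any 1 of the 4 left out as well, with limma adjusted p of 0.0747 to 0.26. In the same fits comp46685 was called without BB-N 20V b (limma adjusted p = 0.0398).

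In SD-S, values of TCALIF_01534 were 640 and 702 in 20V and 1797 and 1693 in 28V, a log2 difference of 1.38 ± 0.21 (SE, limma adjusted p = 0.339). Those of comp46685 were 32.9 and 54.1 against 85.6 and 197, a log2 difference of 1.60 ± 0.16 (limma adjusted p = 0.146). For comp46685 the b library was above the a library in all 4 SD-S treatments and in all 4 SC-N treatments. The authors ran the second replicate of these populations on another sequencer model than the first, and no label ties a suffix to it. In SD-S the log2 difference of comp46685 was 2.20 without SD-S 28V a and 1.002 without SD-S 28V b. It was not called without either 20V library.

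**Figure D3:**
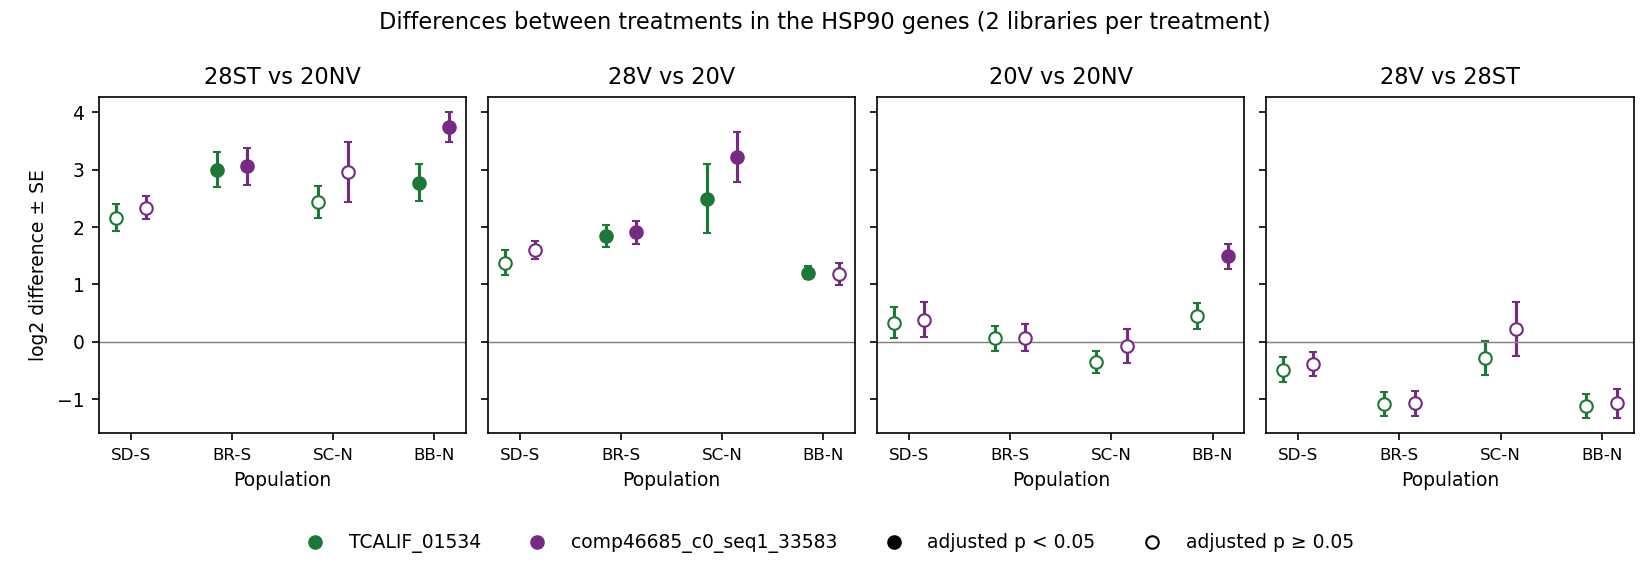
Differences between treatments of TCALIF_01534 (green) and comp46685 (purple) in 4 populations, on the log2(value + 1) scale with bars of 1 SE from limma, filled where the adjusted p-value was under 0.05. Every difference for 28ST vs 20NV and 28V vs 20V is above 0, from 1.19 to 3.74, and comp46685 in BB-N has the only filled point for 20V vs 20NV, at 1.49.

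Expression at 20° was compared between regimes by 20V vs 20NV. Of 8 differences 1 was called, that of comp46685 in BB-N, where 1.16% of all genes were called higher. In the table of this comparison its values were 6.01 and 7.88 in 20NV and 17.3 and 25.9 in 20V, and the log2 difference was 1.49 ± 0.22 (SE, limma adjusted p = 0.0209). It was not called with all 4 libraries and no block (limma adjusted p = 0.129), nor with any 1 of the 4 left out as well, with limma adjusted p of 0.183 to 0.332. TCALIF_01534 in BB-N had a log2 difference of 0.45 ± 0.22 (limma adjusted p = 0.443), with both 20V libraries above both 20NV libraries. In BR-S the log2 differences were 0.06 and 0.07, in SD-S 0.34 for TCALIF_01534 and 0.39 for comp46685, and in SC-N -0.35 and -0.07 in the same order. The share of genes called higher was 0.0546% in SC-N, 1.4% in SD-S and 0% in BR-S. In the fit of the 8 libraries of each population 0 of the 8 differences were called.

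At 28° the regimes were compared by 28V vs 28ST, in a limma fit of the 8 libraries of each population. No HSP90 difference was called, with 4 of 8 at an unadjusted p under 0.05, and the share of genes called lower or higher was 0% in SC-N, 0.00575% in SD-S, 1.51% in BB-N and 0% in BR-S. The log2 differences in BB-N were -1.12 ± 0.21 for TCALIF_01534 (limma adjusted p = 0.0559) and -1.07 ± 0.26 for comp46685 (limma adjusted p = 0.0914). In BR-S they were -1.09 ± 0.21 and -1.07 ± 0.22 (limma adjusted p = 0.999 for both), and in both of these populations each transcript had both 28V libraries below both 28ST libraries. In SD-S they were -0.49 and -0.39, and in SC-N -0.27 and 0.22, or -0.45 and 0.51 without SC-N 28V a. DESeq2 called 4 of the 8, and the likelihood ratio test of edgeR called 1, with the share of all genes in these tests not given here.

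Whether the response to 28° depended on the regime was tested as 28V minus 20V against 28ST minus 20NV. For comp46685 in BB-N the response was smaller in the variable regime, with a log2 difference of -2.57 ± 0.36 (SE, limma adjusted p = 0.0438), where 0.479% of all genes were called. TCALIF_01534 in BB-N had -1.57 ± 0.29 (limma adjusted p = 0.122). The other differences were not called, at -1.15 for both transcripts in BR-S, -0.83 for TCALIF_01534 and -0.78 for comp46685 in SD-S, and 0.07 and 0.29 in SC-N, or -0.11 and 0.58 without SC-N 28V a. The BB-N difference was not called with all 8 libraries and no block (limma adjusted p = 0.0937), nor with any 1 of the 8 left out as well, with log2 differences of -2.85 to -2.28 and limma adjusted p of 0.0713 to 0.375.

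The responses were also compared between populations in the fit of 32 libraries, for 6 pairs of populations and 2 transcripts in each regime. None of the 12 differences was called for 28ST vs 20NV or for 28V vs 20V, with 2 and 6 of the 12 at an unadjusted p under 0.05. Of all genes, 0.0144% were called for 28ST vs 20NV between BB-N and BR-S, 0.00719% between SC-N and BR-S and 0% in the other pairs, and 0% in all pairs for 28V vs 20V. For 28ST vs 20NV the log2 differences with the smallest unadjusted p were BR-S minus SD-S for TCALIF_01534, 0.84 ± 0.30, and BB-N minus SD-S for comp46685, 1.40 ± 0.51. For 28V vs 20V they were BB-N minus SC-N, -1.29 ± 0.30 for TCALIF_01534 and -2.06 ± 0.51 for comp46685 (limma adjusted p = 0.581 for both), and without SC-N 28V a they were -1.08 and -2.32. The calls in some populations and not in others, given above, are therefore not shown to differ between populations. DESeq2 called 2 of the 12 for 28V vs 20V and the likelihood ratio test of edgeR 1, with the share of all genes in these tests not given here.

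Genes whose pattern was most like that of each transcript were sought among 13910 genes, by Pearson's r over 32 libraries after subtraction of each population's mean from the log2 joint values. These are descriptions, with libraries that share treatments, lanes and depths. The nearest gene to comp46685 was TCALIF_01534 (r = 0.947), followed by TCALIF_04182 (isoform a, 0.944), TCALIF_04517 (heat shock protein 70, 0.935), comp51313_c0_seq1_44507 (no description, 0.933) and TCALIF_00753 (78 kda glucose-regulated, 0.927). Nearest to TCALIF_01534 were TCALIF_00753 (r = 0.980), TCALIF_05614 (heat shock protein 40, 0.971), TCALIF_04182 (0.966), comp32704_c0_seq2_17919 (78 kda glucose-regulated protein precursor, 0.961) and TCALIF_11129 (protein disulfide-isomerase a6, 0.950). The 78-kDa glucose-regulated protein is the HSP70 of the endoplasmic reticulum, and protein disulfide isomerases form disulfide bonds there. comp46685 stood at place 6 for TCALIF_01534, and comp41334 at places 18 and 17. Without SC-N 28V a the first 4 places for TCALIF_01534 were unchanged and comp51313_c0_seq1_44507 (r = 0.952) took the next one, and for comp46685 the first 2 were unchanged (0.945 and 0.942) and TCALIF_04918 (0.925) stood at place 5, ahead of TCALIF_00753 (0.924).

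Without that subtraction, r between the 2 transcripts was 0.409 over the 32 libraries. Within populations it was 0.9996 in BR-S, 0.964 in BB-N, 0.925 in SD-S and 0.923 in SC-N, over 8 libraries each, or 0.916 in SC-N over 7 without SC-N 28V a. BR-S thus had both the highest ratio of comp46685 to TCALIF_01534 and the closest run of the 2 across its libraries. It also had the most reads of comp46685, 1195 to 38141 per library. The range was 127 to 2788 in SD-S, 33 to 640 in BB-N and 13 to 814 in SC-N. How far counting error lowered r in these populations was not tested.

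The remaining HSP90 entry, comp41334, was called in no comparison of treatments. Its log2 differences for 28ST vs 20NV were 1.16 in SC-N, 0.93 in SD-S, 0.94 in BB-N and 0.99 in BR-S, and for 28V vs 20V they were 0.88, 0.66, 0.55 and 1.03 in the same order. For 28ST vs 20NV all 4 are smaller than the differences of both other transcripts in the same population, which was not tested.

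The listed partners of HSP90 are 3 transcripts of the HSP70-HSP90 organizing protein HOP, the kinase co-chaperone cdc37, unc-45, 2 fkbp8 immunophilins and dnaj c7. For 28ST vs 20NV 1 of the 6 tested in BB-N was called, and none of the 8 tested in SD-S and SC-N or of the 7 tested in BR-S. The median log2 difference of the list was 0.48 in SC-N, 0.70 in SD-S, 0.44 in BB-N and 0.55 in BR-S, beside medians of all genes between -0.02 and -0.01. The called gene was TCALIF_12367 (unc-45), which in other animals folds myosin together with HSP90, with 1.48 ± 0.17 (SE, limma adjusted p = 0.0378). Among HOP transcripts TCALIF_08136 had log2 differences of 1.08 in SC-N, 1.68 in SD-S, 1.44 in BB-N and 1.59 in BR-S, none of them called, and those of cdc37 (TCALIF_01546) were at most 0.38.

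For 28V vs 20V no partner was called, with list medians of 0.56 in SC-N, 0.37 in SD-S, 0.30 in BB-N and 0.30 in BR-S. For 20V vs 20NV the only call was comp47962_c0_seq1_36323 (dnaj c7) in SD-S, at 2.56, which was called without the block (limma adjusted p = 0.00535) and not in the fit of 8 libraries (limma adjusted p = 0.0928). In BB-N unc-45 was also lower in 28V than in 28ST, by -1.13 on the log2 scale, and its response was smaller in the variable regime, by -1.20, both called.

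Among the 7 listed HSP70 transcripts, which bind unfolded chains ahead of HSP90, 28ST vs 20NV called 2 of 6 higher in SC-N, 1 of 7 in SD-S, 4 of 7 in BB-N and 2 of 7 in BR-S, and none lower. TCALIF_06728 was called higher in all 4 populations, by 5.41 in SC-N, 4.68 in SD-S, 7.83 in BB-N and 4.18 in BR-S on the log2 scale. TCALIF_04517 was called higher in BB-N (6.03), SC-N (4.50) and BR-S (5.36). It was not called in SD-S, where the authors reported a rise of it. The largest log2 difference of the list in SD-S, 4.94, was not called. For 28V vs 20V the counts were 3 of 6, 0 of 7, 1 of 7 and 2 of 7 in the same order. In BB-N both TCALIF_04517 and TCALIF_06728 also rose from 20NV to 20V, by 3.05 and 3.15, as did comp46685. The same 2 HSP70 transcripts rose in that comparison in SD-S, by 2.06 and 1.86, where neither HSP90 transcript was called. In that SD-S table limma also gave every gene the trend's variance, and neither was called without the block (limma adjusted p of 0.115 and 0.057) or in the fit of 32 libraries (0.132 and 0.413). Their response was smaller in the variable regime in BB-N, by -3.76 and -5.62. Of the listed SC-N chaperones none was called for 28V vs 20V without the block or in the fit of 8 libraries. The fit of 32 libraries called 3 of the 6 HSP70 and 3 of the 5 HSP40 transcripts, and 35 of all 13911 genes higher. Without SC-N 28V a the log2 differences of TCALIF_04517 and TCALIF_06728 were 4.16 and 2.75, beside 3.63 and 3.68 with all libraries.

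Of the 6 listed HSP40 transcripts, the J-proteins that load clients onto HSP70, 28ST vs 20NV called 2 of 5 in BB-N and none in the other populations, and 28V vs 20V called 2 of 5 in SC-N and none elsewhere. The same 2 transcripts were called in both cases, TCALIF_05614 with 1.94 and 1.66 and comp49814_c3_seq5_40727 with 1.73 and 1.37.

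**Figure D4:**
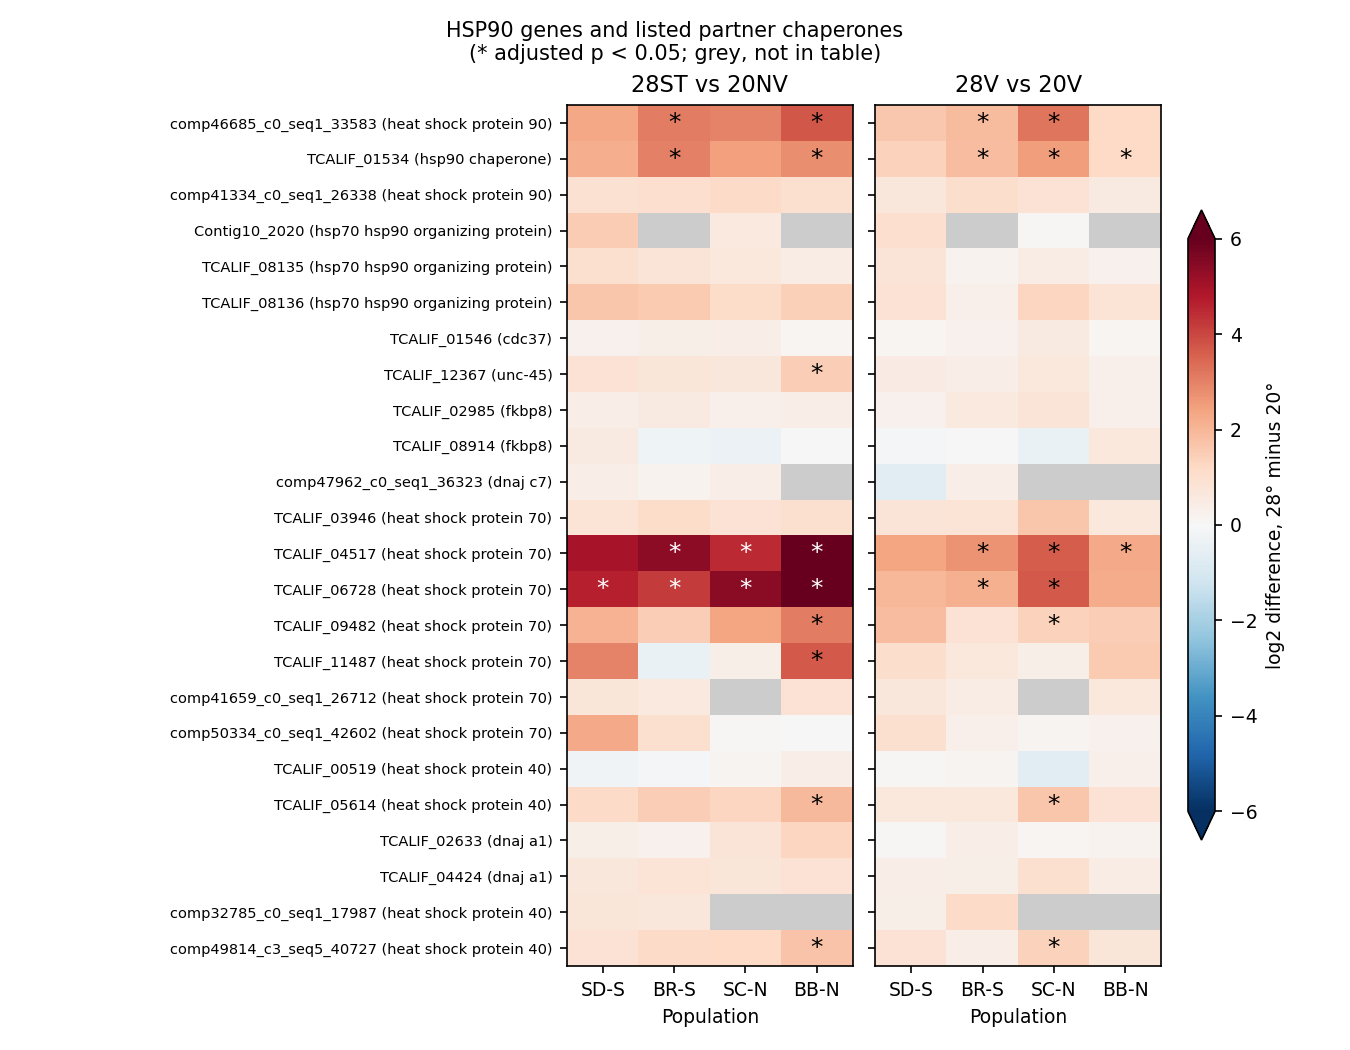
Log2 differences of the HSP90 entries and of the listed partner, HSP70 and HSP40 transcripts for 28ST vs 20NV (left) and 28V vs 20V (right) in 4 populations, from blue (lower at 28°) to red (higher at 28°), with stars for adjusted p-values under 0.05 in limma and grey for transcripts not in a table. The scale ends at 6, and TCALIF_06728 in BB-N lies beyond it at 7.83.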

How the data were processed

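RNA was sequenced as unstranded TruSeq libraries of 32 pools. The authors mapped trimmed reads with CLC Genomics Workbench to each population's own GT, sent unmapped reads to the DNT, kept unique reads, removed genes of low counts and scaled with TMM in edgeR. The signal deposited by the authors in 12 tables (1 per population and comparison) is counts (cpm) relative to the scaled library size. The log2 fold changes, p-values and FDR that the authors put in these tables were not used, nor was a shorter list that repeats 4 columns. Columns were assigned to groups by their names, and the suffix, which neither labels nor methods tie to a replicate number or lane, served as the block.

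Reads were recovered as whole numbers, to within 0.01 reads, in 100% of entries. Tests used limma 3.58.1 in R 4.3.3 on log2(value + 1), with the suffix block and a variance trend, two-sided, over all genes of a table (4 libraries, 1 residual degree of freedom) or, after joint TMM scaling of the recovered reads, over 8 or 32 libraries (3 and 12). P-values rest on the spread of a gene between dishes, weighted with a variance trend over all genes. In fits of 1 table the gene's own spread had only 1 residual degree of freedom. For 28V vs 20V in SC-N and 20V vs 20NV in SD-S the trend's variance alone was used. Alternatives used edgeR 4.0.16 and DESeq2 1.42.0. Values of nearest genes, sums and listed chaperones without SC-N 28V a, and of SD-S chaperones in other fits, were added after seeing the data. The members, lists, pseudocount and trend were chosen with earlier results of these data known. Named genes are the members, the listed chaperones and the 5 nearest genes by pattern. None of the 21556 identifiers matched the 16893 genes of the reference list, so no sequences or coordinates are given.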

Additional observations from a re-analysis of the deposited data

Results flagged for a closer look

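The response of comp46685_c0_seq1_33583 to 28° in BB-N differed between the regimes, by -2.57 on the log2 scale (limma adjusted p = 0.0438 over the 17110 genes fitted). All 4 of the libraries at 28° were above all 4 at 20°, so that the response was positive in both regimes and smaller in the variable one. This was the only call among the 8 tests of this kind. It was lost without the block (limma adjusted p = 0.0937), in the fit of 32 libraries, without the variance trend and with a pseudocount of 5. In BB-N the log2 difference of comp46685 was 1.49 for 20V vs 20NV and -1.07 for 28V vs 28ST, and the latter was not called.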

How the results depend on the processing

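The number of calls among the differences of the 2 transcripts moved with the setting. For 28ST vs 20NV 4 of 8 were called, against 1 at an adjusted p under 0.01 and 1 with the quasi-likelihood test of edgeR, 2 without the replicate block, without the variance trend, with a pseudocount of 0.1 and with RLE scaling, and 8 with the likelihood ratio test of edgeR, DESeq2 and the fit of 32 libraries. Of all genes, the likelihood ratio test called 52 to 205 higher per population, DESeq2 34 to 117 and the fit of 32 libraries 28 to 93. For 28V vs 20V 5 were called, against 0 without the replicate block and in the fit of 8 libraries, 2 without the trend and 8 with DESeq2. There DESeq2 called 28 to 49 of all genes higher per population. For 20V vs 20NV the single call was lost (0) at 0.01, without the block, without the trend and in both joint fits. For 28V vs 28ST 0 were called, against 2 at 0.1, 1 with 32 libraries, 1 with a mean value of at least 10, 1 with the likelihood ratio test and 4 with DESeq2. For the response by regime the 1 call became 0 at 0.01, with 32 libraries, without the block, without the trend and with a pseudocount of 5, and 2 with DESeq2. For the response by population in 28V vs 20V 0 became 1 with the likelihood ratio test and 2 with DESeq2. For levels 7 calls at 28ST became 4 at 0.01, and 5 at 28V became 3 at 0.01 and 3 without the block. The cause was not tested. The 6 calls at 20NV and 9 at 20V stayed within 1.5 times under all alternatives other than leaving out a library.

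Each library was also left out in turn, without the block and with the lone library of a group assumed to vary like the others. For treatments within a population only the population that lost a library was refitted. No count of calls over the 4 populations is therefore given for these fits. For 28ST vs 20NV the log2 differences ran from 1.78 to 4.14, both for comp46685 in SC-N. For 28V vs 20V they ran from 0.906 for comp46685 in BB-N to 3.73 for comp46685 in SC-N.

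The suffix served as a block in all 4 populations. A check asked whether the correlation of suffix differences between treatments was over 0.1 in all 6 pairs of treatments. SD-S met this (0.167 to 0.399) and the other populations did not, with 2 pairs in BB-N, 4 in SC-N and 4 in BR-S. This check thus did not bear out the pairing of libraries used in BR-S, SC-N and BB-N. With the same block, the likelihood ratio test of edgeR for 28ST vs 20NV called 74 genes higher and 11 lower in BR-S. In SC-N it called 52 higher and 2 lower. The authors, who used the sequencing lane as their block, reported the same counts for these populations and this comparison. Without the replicate block the calls were those given above.

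Of 1367 single differences under the other alternatives, 4 changed sign. They all belong to comp46685_c0_seq1_33583, SC-N minus BR-S, for 28ST vs 20NV (main value -0.10, not called), at 0.0909 with a pseudocount of 0.1, 0.28 and 0.29 with the likelihood ratio and quasi-likelihood tests and 0.30 with DESeq2. Of 2528 differences without a library 29 did, and their results had these ranges. For comp46685 these were -0.0262 to 2.33 (BB-N minus SC-N level at 28ST), -0.34 to 0.17 (BB-N minus SC-N level at 28V), -0.40 to 1.96 (BB-N minus SC-N response in 28ST vs 20NV), -0.998 to 0.19 (BB-N minus SD-S response in 28V vs 20V), -0.30 to 0.89 (BR-S minus SD-S response in 28V vs 20V), -0.0591 to 0.20 (BR-S 20V vs 20NV), -1.28 to 1.08 (SC-N minus BR-S response in 28ST vs 20NV), -0.56 to 1.80 (SC-N minus SD-S response in 28ST vs 20NV), -0.58 to 0.45 (SC-N 20V vs 20NV), -0.94 to 1.39 (SC-N 28V vs 28ST), -0.87 to 1.45 (SC-N response by regime), -0.16 to 0.94 (SD-S 20V vs 20NV) and -0.99 to 0.21 (SD-S 28V vs 28ST). For TCALIF_01534 these were -0.27 to 0.15 (BB-N minus SC-N level at 28V), -0.13 to 0.28 (BB-N minus SD-S level at 20NV), -0.0731 to 0.19 (BR-S 20V vs 20NV), -0.21 to 0.11 (SC-N minus SD-S level at 28ST), -0.0811 to 0.34 (SC-N minus SD-S level at 28V) and -0.11 to 0.25 (SC-N response by regime).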
